A study of Mus musculus with 12 samples.

Results

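The Serpin genes encode the serpins, a family of protease inhibitors and their non-inhibitory relatives, and their RNA was followed in 12 bulk RNA sequencing libraries of mouse rectum. Members were taken as all genes whose symbol starts with Serpin, and 3 lines with names ending in -ps were left out. Of 27785 genes in the table, 57 were members. Serpina4-ps1, an annotated pseudogene, was kept because its name does not end in -ps. Serpinb10 stood on 2 lines, and the line with the higher mean was used. By the letter that names the clade, 25 members belonged to clade a, 22 to clade b and 10 to other clades.

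An inhibitory serpin offers its reactive centre loop as bait. The protease cuts the loop and is trapped in a covalent complex as the serpin changes shape. Clade a serpins are mostly secreted, and many are made by the liver and circulate in plasma, while clade b serpins lack a classical signal peptide, stay largely inside cells and protect them from their own or escaped proteases. Several clade b members are known from stratified squamous epithelium, the tissue of skin and of the anal canal next to the rectum.

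The study set out to compare rectum after deletion of the tumour suppressor Apc, a brake on Wnt signals, from cells marked by Lgr5, by Cdx2 or by both. The Lgr5-Apc group (n = 4) had the genotype Lgr5creER;APC flox, the Cdx2-Apc group (n = 3) CDX2creER;APC flox, and the Lgr5-Cdx2-Apc group (n = 2) Lgr5creER;CDX2creER;APC flox. These 3 groups received tamoxifen, which activates the CreER recombinase, intraperitoneally at 25 mg/kg on 5 consecutive days. The control samples (n = 3) were titled WT, but their genotype field reads CDX2creER;APC flox(WT) and carries no tamoxifen entry, although the same protocol stands on every sample, so whether they had Cre, floxed Apc or injections was not established. Lgr5 marks intestinal stem cells and Cdx2 the intestinal epithelium, and Cre can act only where each driver is on. The labels give no age, sex or animal, so p-values measure only the spread between these samples.

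Values are FPKM, fragment counts divided by transcript length and by library size, and the number of reads behind them is unknown. The FPKM of a library summed to between 451297 and 728462. Libraries of the same group differed in tissue makeup, measured as the mean log2(FPKM + 1) of marker lists. The squamous score was 6.25, 2.26 and 2.09 in control, 4.42, 8.82, 7.97 and 0.81 in Lgr5-Apc, 1.25, 1.49 and 4.32 in Cdx2-Apc, and 6.99 and 8.26 in Lgr5-Cdx2-Apc. Control replicate 1 and Lgr5-Apc replicates 2 and 3 therefore stood apart from the rest of their groups and with the Lgr5-Cdx2-Apc pair. The columnar epithelium score, a measure of rectal lining, was 6.75 and 4.06 in Lgr5-Cdx2-Apc, 6.18 in Lgr5-Apc replicate 2 and at least 8.0 in the other 9 libraries. For skeletal muscle, the score reached 4.31 and 4.59 in Lgr5-Cdx2-Apc and 4.58 in Lgr5-Apc replicate 2 but at most 1.89 elsewhere, and for smooth muscle it was 3.11 and 2.36 in Lgr5-Cdx2-Apc and at least 5.72 elsewhere. Of 28 squamous list genes, 4 rose in Lgr5-Cdx2-Apc against control, 6 against Cdx2-Apc and 0 against Lgr5-Apc (limma). Over all genes tested, 10.5%, 12.1% and 5.22% rose in these comparisons, in that order. Xist, expressed from the inactive X chromosome of females, was at most 1.12 FPKM in the Cdx2-Apc libraries and 61.1 to 266 in the other 9, and the Y-linked Eif2s3y was 24.7 to 28.5 FPKM in Cdx2-Apc and at most 3.06, in control replicate 1, elsewhere. Sex and genotype cannot be told apart in any comparison with Cdx2-Apc. In bulk tissue, fewer cells of a type and less RNA per cell cannot be told apart either.

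The members lie mainly in 3 clusters on the GRCm38 genome (GENCODE M21). On chromosome 12, between 103614786 and 104414329, stand 24 clade a genes, and Serpina7 is on the X chromosome. On chromosome 1, between 106861173 and 107610484, stand 12 clade b genes, and on chromosome 13, between 32842092 and 34002794, the other 10. Most chromosome 1 genes shared an order across the libraries that most chromosome 13 genes did not, and the Serpina1 copies of chromosome 12 had another, so stretches upstream of their starts are shown. RefSeq (GRCm38.p6) gave a promoter for 46 of the 57 members, and the 250 bases before each start were searched on both strands for 11 motifs. A member with several listed starts was counted once, if any of them held the motif. The shares over all promoters count each start by itself. The motifs were TGANTCA, its AP-1 spelling TGAGTCA, which every TGANTCA count includes, the HNF1 half-site GTTAAT, a longer HNF1 form, which holds the half-site, CAAAGTCCA for HNF4, TGTTTAC for forkhead factors, TTGCNNCAA and TTNNGCAA for C/EBP, the general promoter element CCAAT, the Krüppel-like factor element CACCC, and TATAAA, the TATA box.

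TGANTCA occurred in 7 of 11 chromosome 1 clade b promoters, 0 of 9 on chromosome 13, 4 of 18 of clade a, 0 of 8 of other clades and 6.75% of 32851 promoters in all. The 4 of clade a were Serpina1a to Serpina1d, each with the spelling TGAGTCA. The 7 on chromosome 1 were Serpinb2, Serpinb5, Serpinb7, Serpinb8, Serpinb10, Serpinb11 and Serpinb12. Only Serpinb7 and Serpinb8 among them carried TGAGTCA, which 4.46% of all promoters hold. The TATA box was also found in 7 of these 11, including Serpinb3a to Serpinb3d, against 12.4% of all. Shown here 5′ to 3′ on the plus strand, with TGANTCA in capitals, are 4 of the 7: Serpinb5 at chr1:106861025-106861174, Serpinb12 at chr1:106934299-106934448, Serpinb7 at chr1:107422539-107422688 and Serpinb8 at chr1:107589856-107590005. The motif starts 140, 45, 45 and 23 bases before the RefSeq start, in that order.
Serpinb5: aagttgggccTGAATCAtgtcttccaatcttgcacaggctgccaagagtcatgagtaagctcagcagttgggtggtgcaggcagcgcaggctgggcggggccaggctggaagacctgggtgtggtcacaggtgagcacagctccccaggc
Serpinb12: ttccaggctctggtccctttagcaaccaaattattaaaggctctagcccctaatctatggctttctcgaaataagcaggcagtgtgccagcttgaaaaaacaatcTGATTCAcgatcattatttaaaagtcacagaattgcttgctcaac
Serpinb7: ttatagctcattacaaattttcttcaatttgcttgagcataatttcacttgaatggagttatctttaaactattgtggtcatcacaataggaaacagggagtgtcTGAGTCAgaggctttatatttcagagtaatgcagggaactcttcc
Serpinb8: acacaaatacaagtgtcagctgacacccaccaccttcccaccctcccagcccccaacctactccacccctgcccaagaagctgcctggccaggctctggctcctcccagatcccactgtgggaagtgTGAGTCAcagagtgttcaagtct

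GTTAAT occurred in the promoters of all 5 of Serpina1a to Serpina1e, which are tandem copies, and in 6.43% of all promoters. Serpina3c, Serpina7, Serpinb3b, Serpinb3d and Serpinb8 held it too. All 5 copies also held CCAAT and CACCC, beside 33.8% and 52.0% of all promoters. TTNNGCAA was in 3 of the 5, beside 9.56%. The longer HNF1 form and the HNF4, forkhead and TTGCNNCAA motifs occurred in 0 of the 46 members. Of all promoters, 0.134%, 0.384%, 3.17% and 1.74% held these 4, in that order. The copies are shown because Serpina1e departed from the other 4 in its RNA level. With GTTAAT in capitals and 5′ to 3′ on the minus strand, the stretches are Serpina1a at chr12:103863620-103863719, Serpina1b at chr12:103738190-103738289, Serpina1c at chr12:103904951-103905050, Serpina1d at chr12:103773634-103773733 and Serpina1e at chr12:103956898-103956997. The listed start of Serpina1e lies further downstream, with GTTAAT 78 bases before it, against 21, 26, 27 and 16 bases in Serpina1a to Serpina1d. TGAGTCA starts 212 to 214 bases further upstream in Serpina1a to Serpina1d, and the same distance in Serpina1e falls outside the 250 bases searched. These matches describe letters and show neither binding nor a cause.
Serpina1a: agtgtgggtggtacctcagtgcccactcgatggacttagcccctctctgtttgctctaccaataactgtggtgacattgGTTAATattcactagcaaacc
Serpina1b: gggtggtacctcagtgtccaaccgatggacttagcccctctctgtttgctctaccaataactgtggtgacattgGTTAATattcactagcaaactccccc
Serpina1c: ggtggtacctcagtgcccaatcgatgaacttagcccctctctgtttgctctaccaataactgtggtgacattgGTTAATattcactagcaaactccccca
Serpina1d: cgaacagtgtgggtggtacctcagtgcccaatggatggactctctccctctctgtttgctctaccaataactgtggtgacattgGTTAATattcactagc
Serpina1e: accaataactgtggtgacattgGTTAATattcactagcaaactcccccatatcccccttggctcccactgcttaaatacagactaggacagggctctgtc

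Levels in the family spanned a wide range. Of the 57 members, 10 stayed under 1 FPKM in all libraries, 26 reached 10 FPKM in at least 1 library and 7 reached 100. In every library 8 members were at 1 FPKM or more, 4 of clade b and 4 of other clades, and 34 members were listed at 0 in at least 1 library. The summed FPKM of the family was 772, 447 and 475 in control, 391, 1744, 1384 and 324 in Lgr5-Apc, 648, 459 and 484 in Cdx2-Apc, and 853 and 1560 in Lgr5-Cdx2-Apc. The number of members at 1 FPKM or more ran from 10 in Lgr5-Apc replicate 4 to 37 in Lgr5-Cdx2-Apc replicate 2.

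**Figure D1:**
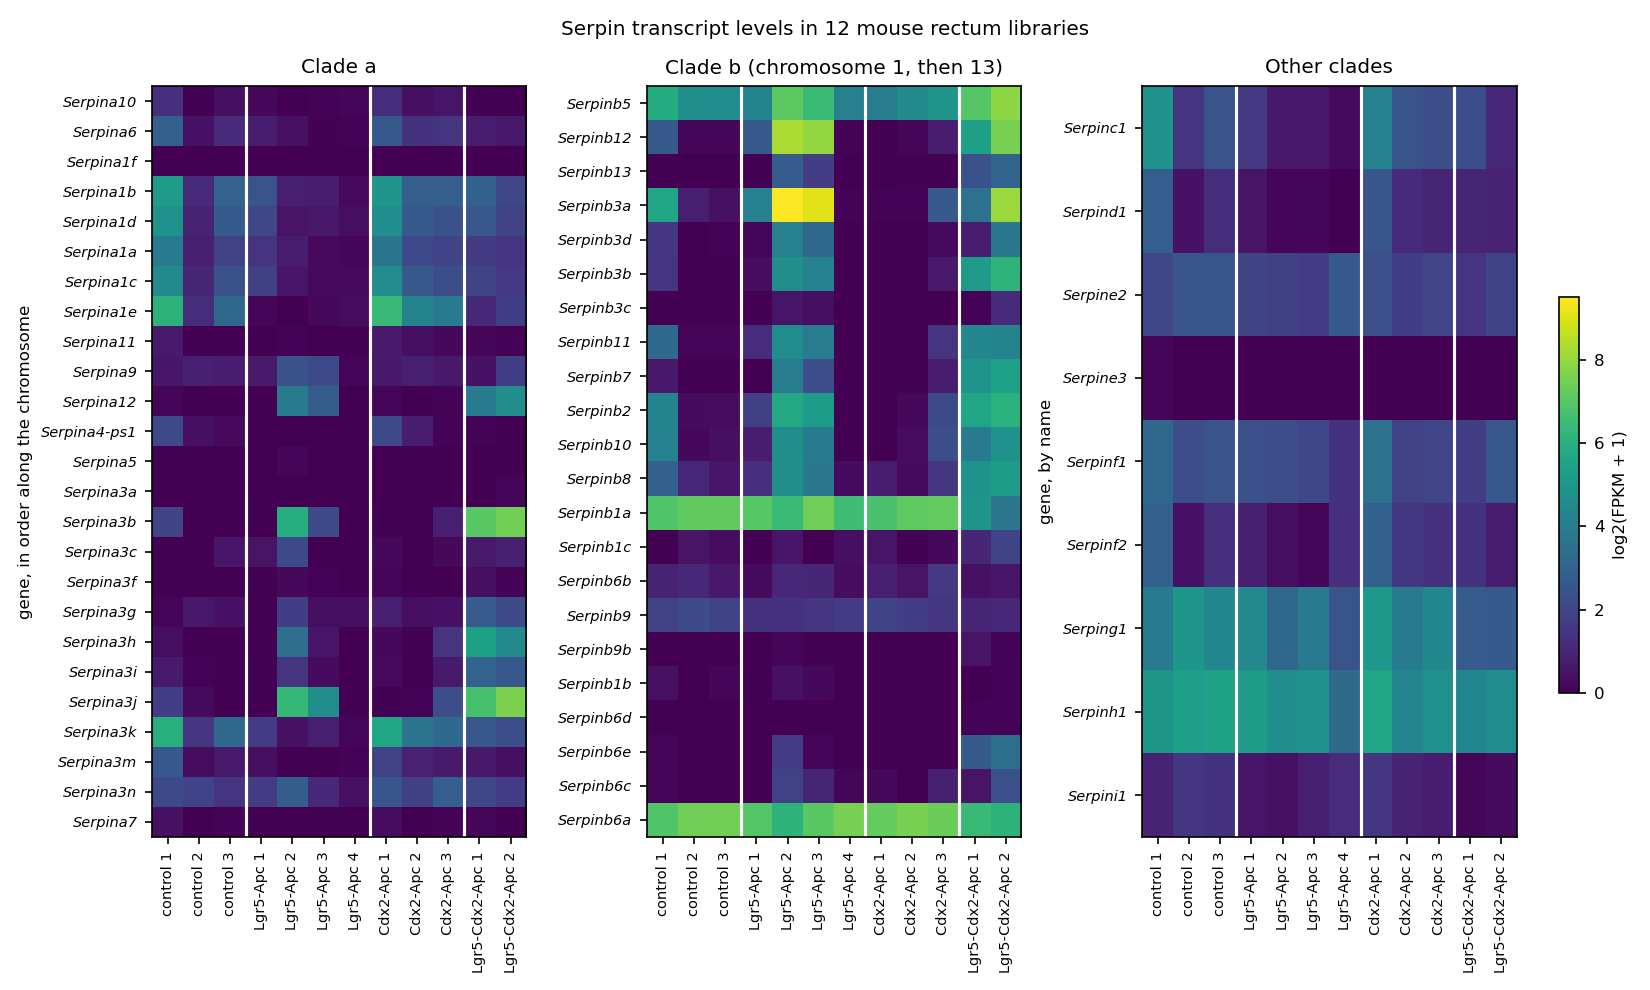
Level of the members reported here (rows, in 3 panels by clade) in each of the 12 libraries (columns, with white lines between groups), as colour on a log2(FPKM + 1) scale. Serpinb1a and Serpinb6a are bright in nearly every column, Serpinb3a and Serpinb12 are brightest in Lgr5-Apc replicates 2 and 3, and the Serpina1 genes in control replicate 1 and Cdx2-Apc replicate 1.

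The rank of the leading member changed with the library. Serpinb6a was the highest member in 7 libraries and Serpinb1a in Lgr5-Apc replicate 1. Serpinb3a led in Lgr5-Apc replicates 2 and 3, with 40.9% and 38.6% of the family's FPKM, and in Lgr5-Cdx2-Apc replicate 2, with 17.0%. Serpina3b led in Lgr5-Cdx2-Apc replicate 1, with 15.7%.

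Of the members, 45 reached 1 FPKM in at least 2 libraries and were tested, 18 of clade a, 18 of clade b and 9 of other clades. The 12 that were not tested include Serpina11, highest at 0.620 FPKM, and Serpine3, highest at 0.082. A gene could pass this filter through the group in which it is high, so counts over tested members are set beside the same share over all genes. Differences below are in log2(FPKM + 1), given with their standard error from limma, and they understate the change of low genes.

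Lgr5-Apc rectum was compared with control to ask what follows Apc deletion from Lgr5-marked cells. No member passed in either direction (limma, adjusted p below 0.05), where 0.0115% of all 17360 genes tested did, and the smallest adjusted p of a member was 0.404. An unadjusted p under 0.05 was reached by 10 members, beside 10.8% of all genes. All 10 were lower in Lgr5-Apc, beside 4.77% of all genes, and they were Serpinb9 and 9 liver-type genes, Serpina1a to Serpina1e, Serpina3k, Serpina6, Serpinc1 and Serpind1. The hepatocyte score, the same measure for liver genes, was 6.12, 2.50 and 3.90 in control and 3.25, 2.25, 2.08 and 1.36 in Lgr5-Apc, and its part in these differences was not tested. The median difference over the 45 tested members was -0.22, against 0.03 over all genes tested. The members with the highest single values spread widely within both groups. Serpinb3a (ENSMUSG00000044594.14, chr1:107045587-107052303, minus strand), a relative of the human squamous cell carcinoma antigens that inhibits cysteine and serine proteases, was 47.9, 0.727 and 0.361 FPKM in control and 16.7, 713, 535 and 0.0754 FPKM in Lgr5-Apc. The difference was 3.42 ± 2.26 (SE; limma adjusted p = 0.572), and the groups overlapped, with replicate 4 of Lgr5-Apc below every control. Serpinb12, an inhibitor of trypsin-like proteases found in epithelia, was 5.32, 0.129 and 0.136 FPKM in control and 5.31, 315, 249 and 0.0774 FPKM in Lgr5-Apc, a difference of 3.75 ± 1.77 (SE; limma adjusted p = 0.469). In both genes the same pair of Lgr5-Apc libraries, with squamous scores of 8.82 and 7.97, held the high values, and the part of squamous tissue in the difference was not tested.

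Cdx2-Apc rectum was compared with control to ask the same of Cdx2-expressing cells. No member passed (limma), where 0.0403% of all genes tested did, 0.0288% higher and 0.0115% lower, and 1 member had an unadjusted p under 0.05, beside 1.64% of all genes. The smallest adjusted p of a member was 1. The median difference of the tested members was 0.02, against 0.04 over all genes.

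Lgr5-Cdx2-Apc rectum, the group with both drivers, was compared with control and then with each single driver. Against control, 11 members rose and 3 fell of 45 tested (limma), where 10.5% of all genes tested rose and 8.55% fell, 19.1% in all. Of these, 6 of clade a and 5 of clade b rose, while 2 of clade b and 1 of another clade fell. Against Lgr5-Apc, 7 rose and 1 fell, beside 5.22% and 3.77% of all genes, 8.99% in all. Against Cdx2-Apc, 13 rose and 4 fell, beside 12.1% and 11.7%, 23.8% in all. The medians over tested members were -0.23, 0.91 and -0.28 in these 3 comparisons, and 0.07, 0.03 and 0.04 over all genes. The 3 comparisons share the same 2 Lgr5-Cdx2-Apc libraries.

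**Figure D2:**
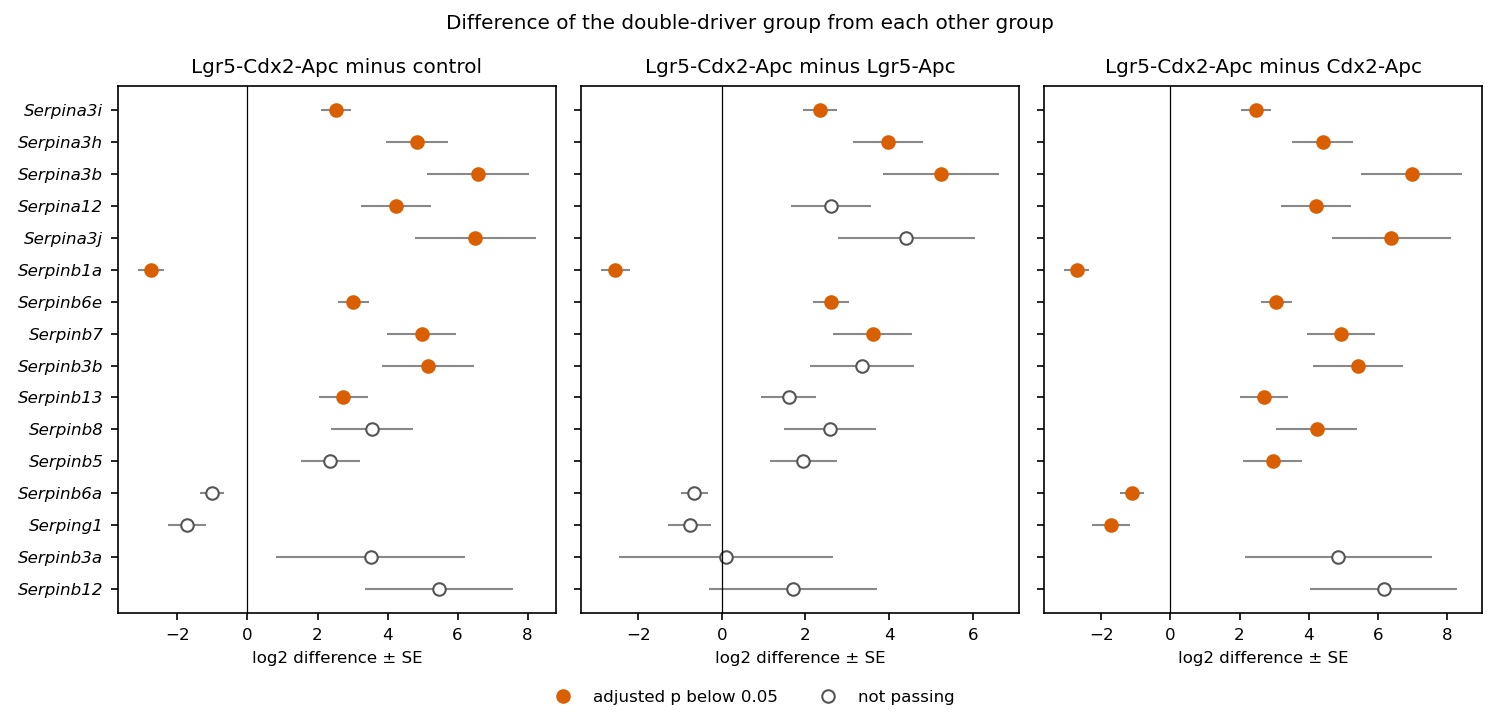
Difference in log2(FPKM + 1) of Lgr5-Cdx2-Apc from each other group for the 16 named members, with bars of 1 standard error and filled points for limma adjusted p below 0.05. Serpinb1a lies below 0 with a filled point in all 3 panels, and Serpina3b, Serpina3h, Serpina3i, Serpinb6e and Serpinb7 lie above 0 with filled points in all 3.

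These counts rest on few libraries. Without Lgr5-Cdx2-Apc replicate 1 they were 2, 2 and 4 in place of 14, 8 and 17, and without replicate 2 they were 0, 0 and 1. Leaving out control replicate 2 or control replicate 3 left 7 against control, leaving out Lgr5-Apc replicate 1, 2 or 3 gave 3, 15 or 3 against Lgr5-Apc, and leaving out Cdx2-Apc replicate 1, 2 or 3 gave 10, 6 or 11 against Cdx2-Apc. Without Cdx2-Apc replicate 3, 5 were called against Lgr5-Apc. The share of all genes called in each of these fits is not given here. A change in the members can thus not be told from a change in calls over all genes.

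Serpinb1a (ENSMUSG00000044734.16, chr13:32842092-32851185, minus strand), an inhibitor of neutrophil elastase and cathepsin G, fell in Lgr5-Cdx2-Apc. It was 120, 144 and 145 FPKM in control, 130, 87.2, 174 and 93.3 FPKM in Lgr5-Apc, 107, 139 and 149 FPKM in Cdx2-Apc, and 29.3 and 12.4 FPKM in Lgr5-Cdx2-Apc. Both double-driver libraries lay below the other 10, and Lgr5-Apc replicate 2, which also had a high squamous score, stayed at 87.2. The differences were -2.77 ± 0.37 from control, -2.54 ± 0.35 from Lgr5-Apc and -2.71 ± 0.37 from Cdx2-Apc (SE; limma adjusted p = 0.00205, 0.00269 and 0.00204). The call against Cdx2-Apc held in 24 of 24 alternative settings, that against control in 23 and that against Lgr5-Apc in 22. Of 12 columnar epithelium genes, 9 also fell against control and 0 rose, beside 8.55% and 10.5% of all genes tested. The columnar score was 6.18 in Lgr5-Apc replicate 2 and 6.75 in Lgr5-Cdx2-Apc replicate 1, where Serpinb1a was 87.2 and 29.3 FPKM. All 10 smooth muscle genes fell as well, and that score was 3.11 and 2.36 in the double-driver libraries. Of 10 tested skeletal muscle genes, 8 rose. The part of any of these tissues in the fall of Serpinb1a was not tested.

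Serpinb6a (ENSMUSG00000060147.15, chr13:33917918-34002794, minus strand), which inhibits cathepsin G and is widely expressed, had the highest mean of the members over all libraries, at 137 FPKM. It was 121, 175 and 177 FPKM in control, 123, 69.7, 134 and 186 FPKM in Lgr5-Apc, 152, 188 and 163 FPKM in Cdx2-Apc, and 84.0 and 69.3 FPKM in Lgr5-Cdx2-Apc. Against Cdx2-Apc it fell by 1.12 ± 0.35 (SE; limma adjusted p = 0.0424), a call kept in 11 of 24 settings, and against control the difference of -1.01 ± 0.35 did not pass (limma adjusted p = 0.0651). Its lowest values were in Lgr5-Apc replicate 2 and Lgr5-Cdx2-Apc replicate 2, the 2 libraries with the lowest columnar scores, at 6.18 and 4.06. Of the 45 tested members, 2 had their lowest values in these libraries, beside 7.79% of all genes. Besides Serpinb6a this was Serpina10, listed at 0 in both and at most 1.46 FPKM in any library. The part of columnar tissue in the level of Serpinb6a was not tested.

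Serpina3 genes, the mouse expansion of the antichymotrypsin gene, held the largest rises. Serpina3b (ENSMUSG00000066364.2, chr12:104127996-104139545, plus strand) was 2.85, 0.0506 and 0.0337 FPKM in control, 0.0195, 59.4 and 3.51 FPKM in Lgr5-Apc replicates 1 to 3 with replicate 4 listed at 0, 0.0448, 0 and 0.768 FPKM in Cdx2-Apc, and 134 and 176 FPKM in Lgr5-Cdx2-Apc. The differences were 6.59 ± 1.46 from control, 5.25 ± 1.38 from Lgr5-Apc and 6.98 ± 1.46 from Cdx2-Apc (SE; limma adjusted p = 0.0163, 0.0438 and 0.0112). Both double-driver libraries were above all others, and the call against Lgr5-Apc held in 7 of 24 settings. Serpina3j was 2.28, 0.198 and 0.0322 FPKM in control, 0.0194, 78.5, 25.8 and 0 FPKM in Lgr5-Apc, 0.041, 0.0692 and 3.69 FPKM in Cdx2-Apc, and 106 and 196 FPKM in Lgr5-Cdx2-Apc. It rose by 6.51 ± 1.72 against control and 6.39 ± 1.72 against Cdx2-Apc (SE; limma adjusted p = 0.0291 and 0.0264), while 4.41 ± 1.64 against Lgr5-Apc did not pass (limma adjusted p = 0.107).

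Serpina3h and Serpina3i were also highest in both Lgr5-Cdx2-Apc libraries, at lower levels, but with replicate 1 above replicate 2, the reverse of Serpina3b and Serpina3j. Serpina3h, annotated as a transcribed unprocessed pseudogene, was 0.279 FPKM in control replicate 1 and listed at 0 in the other controls, 0, 9.63, 0.454 and 0 FPKM in Lgr5-Apc, 0.152, 0.039 and 1.67 FPKM in Cdx2-Apc, and 41.1 and 22.0 FPKM in Lgr5-Cdx2-Apc. Its differences were 4.84 ± 0.89, 3.97 ± 0.85 and 4.40 ± 0.89 from control, Lgr5-Apc and Cdx2-Apc (SE; limma adjusted p = 0.00892, 0.0232 and 0.0103). Serpina3i was 0.600, 0.0704 and 0.0328 FPKM in control, 0.0194, 1.74, 0.212 and 0 FPKM in Lgr5-Apc, 0.167, 0.024 and 0.626 FPKM in Cdx2-Apc, and 7.01 and 5.01 FPKM in Lgr5-Cdx2-Apc. It differed by 2.52 ± 0.43, 2.35 ± 0.41 and 2.48 ± 0.43 (SE; limma adjusted p = 0.00645, 0.00839 and 0.00600). Serpina3g, an inhibitor of lysosomal cathepsins in activated leukocytes, rose too, by 2.06, 1.86 and 1.93 (limma adjusted p = 0.0154, 0.0273 and 0.0156). Its mean is under 5 FPKM in every group, so it was named after its values were seen. The Serpina3 genes are near copies of each other. Of the 50-base windows of the longest transcript, 24.4% in Serpina3h, 16.0% in Serpina3g and 15.4% in Serpina3i occur in another serpin, but only 2.9% in Serpina3b and 3.1% in Serpina3j. The rule for reads shared between copies is not given in the sources used here, so the split between the first 3 is uncertain.

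Serpina12, vaspin, an inhibitor of the epidermal protease Klk7, was 0.108, 0.0125 and 0 FPKM in control, 0, 14.1, 5.94 and 0 FPKM in Lgr5-Apc, 0.0929, 0 and 0.0765 FPKM in Cdx2-Apc, and 14.0 and 24.6 FPKM in Lgr5-Cdx2-Apc. It rose by 4.24 ± 1.00 against control and 4.21 ± 1.00 against Cdx2-Apc (SE; limma adjusted p = 0.0201 and 0.0172), and 2.61 ± 0.95 against Lgr5-Apc did not pass (limma adjusted p = 0.102). Lgr5-Apc replicate 2 reached the level of the lower double-driver library. Klk7 itself was 1.01 FPKM or less in all control and Cdx2-Apc libraries, 0.0761, 86.2, 65.6 and 0 FPKM in Lgr5-Apc, and 97.4 and 167 FPKM in Lgr5-Cdx2-Apc, and it rose by 6.67 ± 1.80 against control (SE; limma adjusted p = 0.0308).

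**Figure D3:**
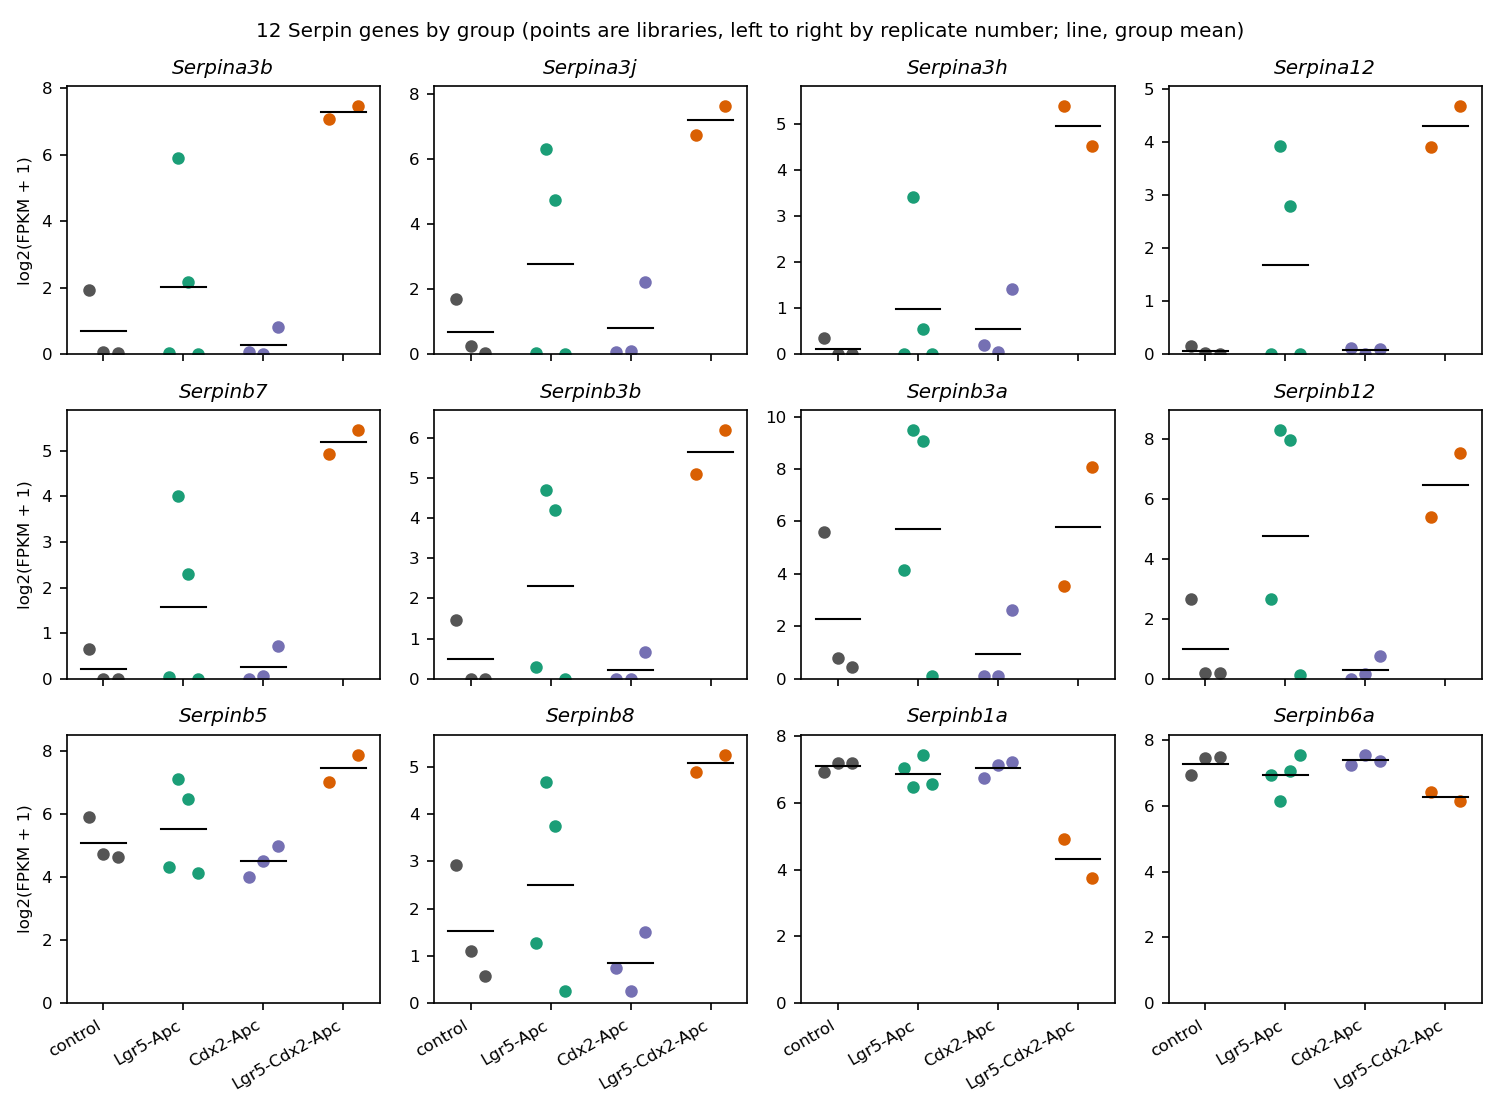
log2(FPKM + 1) of 12 of the named members by group, with 1 point per library and a line at the group mean. In the plotted Serpina3 genes and chromosome 1 genes, replicate 2 is the highest Lgr5-Apc point, at 9.63 FPKM in Serpina3h and 713 in Serpinb3a, while Serpinb1a is lowest in the 2 Lgr5-Cdx2-Apc libraries.

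Of the clade b genes on chromosome 1, Serpinb7 stood with the double-driver group in all 3 comparisons. This gene, megsin, which is mutated in a human palm and sole keratosis, was 0.582, 0 and 0 FPKM in control, 0.0252, 15.1, 3.89 and 0 FPKM in Lgr5-Apc, 0, 0.0385 and 0.651 FPKM in Cdx2-Apc, and 29.5 and 42.8 FPKM in Lgr5-Cdx2-Apc. It rose by 4.97 ± 0.99, 3.61 ± 0.94 and 4.93 ± 0.99 against control, Lgr5-Apc and Cdx2-Apc (SE; limma adjusted p = 0.0119, 0.0432 and 0.0102), the second of these in 7 of 24 settings. On chromosome 13, Serpinb6e was called in all 3 as well, at 0.0935 FPKM in control replicate 1, 0, 2.14, 0.124 and 0 FPKM in Lgr5-Apc, and 5.43 and 9.84 FPKM in Lgr5-Cdx2-Apc. It was listed at 0 in the other 2 controls and in all Cdx2-Apc libraries, and the difference was 3.02 ± 0.45 from control and 2.61 ± 0.43 from Lgr5-Apc (SE; limma adjusted p = 0.00333 and 0.00650). In these 2 genes the lower double-driver library exceeded every other library.

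Serpinb3b and Serpinb13 passed against control and Cdx2-Apc only. Serpinb3b, a second copy of the squamous cell carcinoma antigen type, was 1.75, 0 and 0 FPKM in control, 0.229, 25.2, 17.4 and 0 FPKM in Lgr5-Apc, 0, 0 and 0.598 FPKM in Cdx2-Apc, and 33.3 and 72.4 FPKM in Lgr5-Cdx2-Apc. It overlaps Serpinb3c in the annotation, and 14.3% of its 50-base windows occur in another serpin. It rose by 5.16 ± 1.31 and 5.42 ± 1.31 (SE; limma adjusted p = 0.0253 and 0.0181), and 3.35 ± 1.24 from Lgr5-Apc did not pass (limma adjusted p = 0.107). Serpinb13, which inhibits lysosomal cathepsins in keratinocytes, was listed at 0 in all 3 controls and was 4.28 and 7.41 FPKM in Lgr5-Cdx2-Apc (limma adjusted p = 0.0251). It was 0.0316, 5.75, 2.34 and 0 FPKM in Lgr5-Apc, so replicate 2 lay between the double-driver libraries, and 0, 0.0417 and 0 FPKM in Cdx2-Apc (limma adjusted p = 0.0218).

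Serpinb5 and Serpinb8 passed against Cdx2-Apc alone, in 17 and 18 of 24 settings. Both calls were lost with the squamous score as a covariate and without any 1 library of Cdx2-Apc or Lgr5-Cdx2-Apc, and the differences went as low as 1.07 and 1.51. Serpinb5, maspin, a non-inhibitory epithelial serpin, was 58.2, 25.5 and 23.7 FPKM in control, 18.6, 136, 88.1 and 16.5 FPKM in Lgr5-Apc, 14.9, 21.7 and 30.2 FPKM in Cdx2-Apc, and 128 and 233 FPKM in Lgr5-Cdx2-Apc. It was the only chromosome 1 member above 10 FPKM in every library. The rise against Cdx2-Apc was 2.96 ± 0.84 (SE; limma adjusted p = 0.0314), while 2.36 ± 0.84 against control and 1.94 ± 0.80 against Lgr5-Apc did not pass (limma adjusted p = 0.0721 and 0.139). Serpinb8, an inhibitor of the proprotein convertase furin, was 6.62, 1.14 and 0.480 FPKM in control, 1.42, 24.8, 12.5 and 0.200 FPKM in Lgr5-Apc, 0.682, 0.200 and 1.85 FPKM in Cdx2-Apc, and 28.8 and 37.4 FPKM in Lgr5-Cdx2-Apc. It rose by 4.24 ± 1.17 against Cdx2-Apc (SE; limma adjusted p = 0.0284). Control replicate 1, with the highest squamous score of its group, was the highest control for both.

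The 2 clade b members with the highest single values, Serpinb3a and Serpinb12, passed in no comparison. In Lgr5-Cdx2-Apc, Serpinb3a was 10.7 and 266 FPKM and Serpinb12 was 41.4 and 184 FPKM. Serpinb3a was 0.0604, 0.0781 and 5.23 FPKM in Cdx2-Apc and Serpinb12 was 0, 0.115 and 0.688. Against control the differences were 3.52 ± 2.70 and 5.46 ± 2.12 (SE; limma adjusted p = 0.365 and 0.0909). The double-driver libraries were far apart from each other in both genes. Serpinb3d, another neighbour, was 0.716 and 13.1 FPKM in them, while Serpina3b was 134 and 176. The ratio of Serpina3b to Serpinb3a was thus 12.6 and 0.664 in Lgr5-Cdx2-Apc, and 0.0833 and 0.00656 in Lgr5-Apc replicates 2 and 3.

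Keratins differed between these libraries too. Krt13, a keratin of moist mucosal epithelium, was 5071 and 3100 FPKM in Lgr5-Apc replicates 2 and 3 and 1.28 and 118 FPKM in Lgr5-Cdx2-Apc. Krt10, a keratin of cornified epithelium, was 5939 and 3547 FPKM in the first pair and 2734 and 6923 FPKM in the second. Krt10 was high in all 4, while Lgr5-Cdx2-Apc replicate 1 held the least Krt13 and the least Serpinb3a of the 4. Serpinb3a did not keep to one ratio with Krt13, which was 8.36 and 2.25 in Lgr5-Cdx2-Apc and 0.0276 to 0.173 in the other 10 libraries. The part of each kind of epithelium in the serpin differences was not tested.

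As a description with no test, the values of each member were set against the order of the squamous score, whose list holds no serpin. In 11 of 45 tested members, the 5 libraries with a score of 6.25 or more were all above the other 7, where 6.77% of all genes tested did so. These were 8 of the 11 tested clade b genes on chromosome 1 (Serpinb2, Serpinb3b, Serpinb3d, Serpinb5, Serpinb8, Serpinb10, Serpinb11 and Serpinb12), Serpinb6e on chromosome 13, and Serpina3b and Serpina12. Serpinb3a narrowly missed, since Lgr5-Apc replicate 1, at 16.7 FPKM, exceeded Lgr5-Cdx2-Apc replicate 1, at 10.7. Serpina3j missed through Cdx2-Apc replicate 3, at 3.69 FPKM, which exceeded control replicate 1, at 2.28. Serpinb2, an inhibitor of plasminogen activators also known from keratinocytes, illustrates the order, at 18.3, 0.204 and 0.230 FPKM in control, 2.48, 52.7, 36.0 and 0 FPKM in Lgr5-Apc, 0, 0.157 and 3.35 FPKM in Cdx2-Apc, and 46.4 and 65.4 FPKM in Lgr5-Cdx2-Apc. It overlaps Serpinb10 in the annotation, and Serpinb10 peaked at 27.7 FPKM in Lgr5-Cdx2-Apc replicate 2 and 25.4 in Lgr5-Apc replicate 2, so the 2 genes' values may share reads. With the squamous score as a covariate in the fit, 8 members were called against control, 11 against Lgr5-Apc and 3 against Cdx2-Apc, in place of 14, 8 and 17. How far calls over all genes changed in that fit is not given here, and the part of squamous tissue in the change was not tested.

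**Figure D4:**
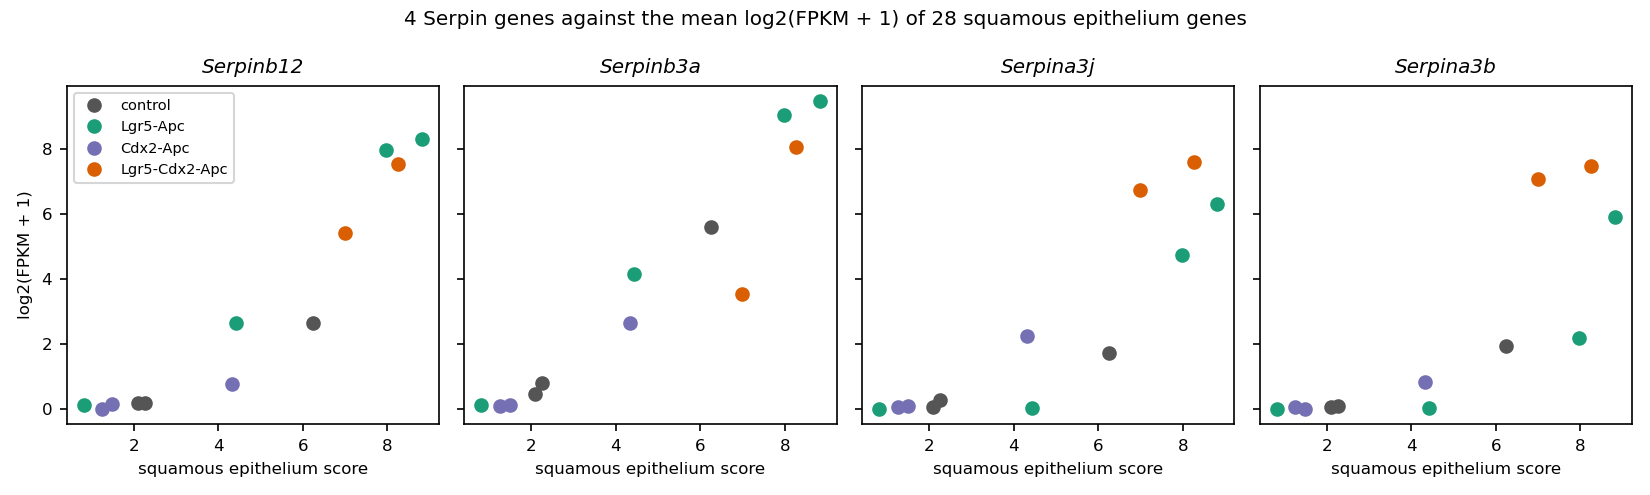
log2(FPKM + 1) of Serpinb12, Serpinb3a, Serpina3j and Serpina3b against the squamous score (mean log2(FPKM + 1) of 28 marker genes), with 1 point per library, coloured by group. At scores of 6.99 and 8.26 the Lgr5-Cdx2-Apc points lie above the Lgr5-Apc points at 7.97 and 8.82 for Serpina3j and Serpina3b, and below them for Serpinb12 and Serpinb3a.

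Called members outside the naming rule, each under 5 FPKM on average in every group, were Serpina3g, already given, Serpinb9, Serpini1 and Serpinb1c, named after their values were seen. Serpinb9, the inhibitor of granzyme B, was 2.67, 3.54 and 2.87 FPKM in control, 1.53, 1.56, 1.84 and 2.12 FPKM in Lgr5-Apc, 2.85, 2.34 and 1.81 FPKM in Cdx2-Apc, and 1.05 and 1.13 FPKM in Lgr5-Cdx2-Apc. It fell by 0.94 ± 0.20 against control and 0.66 ± 0.20 against Cdx2-Apc (SE; limma adjusted p = 0.0143 and 0.0376). All 4 Lgr5-Apc libraries also lay under the 3 controls, but that difference of -0.54 ± 0.17 did not pass (SE; limma adjusted p = 0.404). Serpini1, neuroserpin, an inhibitor of tissue plasminogen activator made by neurons, fell by 1.07 ± 0.30 against control (SE; limma adjusted p = 0.0366), from 0.869, 1.86 and 1.59 FPKM to 0.0935 and 0.203. The enteric neuron score was 0.48 in both double-driver libraries and 1.55 to 2.31 in control. Against control, 3 of 8 tested genes of its list fell, beside 8.55% of all genes tested. The part of this score in the fall of Serpini1 was not tested. Serpinb1c rose to 1.04 and 2.90 FPKM, from at most 0.478 in the other 10 libraries. It passed the filter of 1 FPKM in 2 libraries only through these 2, the group in which it is high.

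Among the members of other clades, Serping1, the complement C1 inhibitor, was 14.3, 31.1 and 20.7 FPKM in control, 21.3, 8.22, 13.8 and 4.48 FPKM in Lgr5-Apc, 32.3, 14.0 and 20.6 FPKM in Cdx2-Apc, and 5.85 and 5.51 FPKM in Lgr5-Cdx2-Apc. It fell by 1.73 ± 0.54 against Cdx2-Apc (SE; limma adjusted p = 0.0443), a call kept in 11 of 24 settings, and a like difference of -1.72 ± 0.54 from control did not pass (limma adjusted p = 0.0507). Serpinh1, the collagen chaperone of the endoplasmic reticulum, which inhibits no protease, was 31.6, 37.7 and 43.2 FPKM in control, 37.1, 25.3, 26.0 and 8.79 FPKM in Lgr5-Apc, 46.5, 18.8 and 25.9 FPKM in Cdx2-Apc, and 19.4 and 23.7 FPKM in Lgr5-Cdx2-Apc, and passed nowhere. Both genes were lowest in Lgr5-Apc replicate 4, which also had the lowest fibroblast score of all, at 2.66. The score was 3.39 in control replicate 1, with Serping1 at 14.3 and Serpinh1 at 31.6 FPKM. It was 4.40 in Lgr5-Cdx2-Apc replicate 2, with Serping1 at 5.51 and Serpinh1 at 23.7 FPKM. The part of fibroblasts in these levels was not tested. Serpine2, which blocks thrombin and plasminogen activators, stayed between 1.78 and 5.13 FPKM in all libraries.

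A separate set of members was highest in the libraries with the highest hepatocyte scores. Serpina1b, one of the antitrypsin copies, was 36.3, 1.22 and 6.86 FPKM in control, 4.44, 0.718, 0.647 and 0.186 FPKM in Lgr5-Apc, 30.1, 6.40 and 6.30 FPKM in Cdx2-Apc, and 6.67 and 3.12 FPKM in Lgr5-Cdx2-Apc. Serpinc1, antithrombin, was 28.2, 1.78 and 4.37 FPKM in control, 1.98, 0.556, 0.551 and 0.210 FPKM in Lgr5-Apc, 17.0, 4.48 and 3.88 FPKM in Cdx2-Apc, and 3.82 and 1.16 FPKM in Lgr5-Cdx2-Apc. In both genes control replicate 1 and Cdx2-Apc replicate 1 were highest, and so was albumin (Alb), the main plasma protein of liver, at 902 and 781 FPKM there and 4.49 to 174 FPKM elsewhere. In 14 of the 45 tested members these 2 libraries were above the other 10, where 2.56% of all genes tested had that order. They were 10 clade a genes (Serpina1a to Serpina1e, Serpina3k, Serpina3m, Serpina4-ps1, Serpina6 and Serpina10) and Serpinc1, Serpind1, Serpinf1 and Serpinf2, and 0 of 18 clade b genes. Serpinf1 had this order by a small margin, at 8.21 and 10.6 FPKM in control replicate 1 and Cdx2-Apc replicate 1. Elsewhere it was 1.60 to 4.94 FPKM and did not follow Alb, with 3.68 in Lgr5-Apc replicate 2 and 2.55 in Cdx2-Apc replicate 2, where Alb was 19.5 and 174. The ratio of Serpina1b to Alb stayed within 0.0350 to 0.0666, and that of Serpinc1 to Alb within 0.0160 to 0.0520. The hepatocyte score was 6.12 and 5.90 in these 2 libraries and at most 4.17 in the other 10, and its part in these members' levels was not tested.

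**Figure D5:**
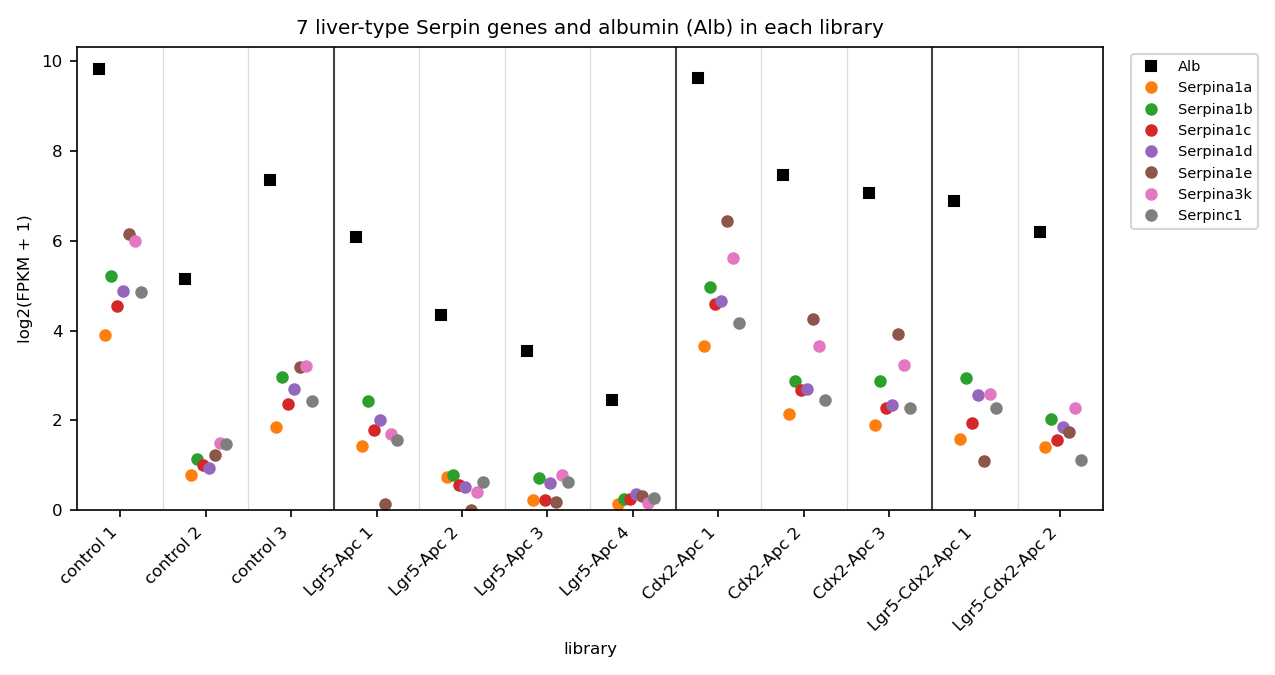
log2(FPKM + 1) of 7 liver-type members (round points) and of Alb (squares) in each library, with lines between groups. All are highest in control replicate 1 and Cdx2-Apc replicate 1, and Serpina1e is the lowest of the 7 in Lgr5-Apc replicates 1 to 3 and in Lgr5-Cdx2-Apc replicate 1.

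Serpina1e (ENSMUSG00000072849.10, chr12:103946931-103958975, minus strand), the fifth antitrypsin copy, broke from the other copies, a comparison chosen after the values were seen and given as a description. It was 69.6, 1.35 and 8.15 FPKM in control, 0.110, 0, 0.140 and 0.252 FPKM in Lgr5-Apc, 86.1, 18.1 and 14.1 FPKM in Cdx2-Apc, and 1.14 and 2.35 FPKM in Lgr5-Cdx2-Apc. Its ratio to Serpina1b was 1.91, 1.11 and 1.19 in control, 0.0248, 0, 0.217 and 1.35 in Lgr5-Apc, 2.86, 2.82 and 2.24 in Cdx2-Apc, and 0.171 and 0.755 in Lgr5-Cdx2-Apc, while that of Serpina1d to Serpina1b ran from 0.590 to 1.52. Lgr5-Apc replicate 1 shows the break at a level where its neighbours could be read, with Serpina1e at 0.110 FPKM beside Serpina1b at 4.44. The ratio was highest in the 3 Cdx2-Apc libraries, which had the most Y-linked Eif2s3y and next to no Xist. Control replicate 1, with a ratio of 1.91, had Eif2s3y at 3.06 FPKM and Xist at 154. The part of sex in the ratio was not tested. The difference between Lgr5-Apc and control, -3.36 ± 0.96, did not pass (SE; limma adjusted p = 0.404). Of the 50-base windows of these copies, 34.2% to 73.3% are shared with another serpin, so the split of reads between them is uncertain.

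The proteases that serpins act on and other inhibitors were counted by lists of named genes, with no test of a list, beside the 10.5% of all genes that rose and the 8.55% that fell against control. Of 11 tested kallikreins, the skin and gland proteases held by several serpins, 2 rose against control, Klk5 by 5.42 ± 1.07 and Klk7, already given (SE; limma adjusted p = 0.0114 for Klk5). Of 14 listed granule serine proteases of mast and killer cells, 11 were measured and 4 were tested. Among these 4, 3 rose and 0 fell, namely Gzmc by 2.27 ± 0.21, Mcpt4 by 2.50 ± 0.35 and Tpsb2 by 1.41 ± 0.25 (SE; limma adjusted p = 0.000384, 0.00247 and 0.00746). All 3 reached 1 FPKM only in the 2 Lgr5-Cdx2-Apc libraries. They thus passed the filter through the group in which they are high, and the count says nothing of the whole list. Mcpt4 and Tpsb2 are mast cell genes. The T and NK cell score was 1.92 and 2.13 in the double-driver libraries and at most 0.53 in the others. Of the 12 genes of its list, 10 were tested and 9 were higher. Several of these 9, among them Trdc, Cd3g and Nkg7, also passed the filter only through the double-driver libraries. The part of this score was not tested. Of 10 plasminogen activation genes, 1 rose, the urokinase gene Plau by 2.10 ± 0.53 (SE; limma adjusted p = 0.0258), and 2 fell, the membrane proteases Tmprss2 and Hpn. Of 14 cysteine proteases, 2 rose and 4 fell, with Ctsw, a cathepsin of killer cells, at 2.13 and Ctss, a cathepsin of antigen-presenting cells, at -2.17 (limma adjusted p = 0.000290 and 0.0322). Ctsw, too, reached 1 FPKM only in the Lgr5-Cdx2-Apc libraries. Of 20 other protease inhibitors, 3 rose and 4 fell, with Wfdc3 at 3.63 and Wfdc2 at -4.29. None of 10 coagulation and complement proteases passed against control. In Lgr5-Apc and in Cdx2-Apc against control, none of the members of these 6 lists passed.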

How the data were processed

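RNA was extracted with an RNeasy kit and DNase, and libraries were made with the NEBNext Ultra II directional kit, per the labels' protocols. The submitters' processing notes name STAR, Cufflinks, Cuffdiff and the mm10 build, and give no versions. The authors deposited 1 table with an FPKM value per gene and library. Its header names no unit, which was settled from the values, and whole reads were not recovered, so no counting interval was made, and a 0 in the table is reported as listed at 0. Whether libraries were rescaled to one another is not given in the sources used here.

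Of 27831 lines, 27785 genes remained after the highest line of each repeated symbol was kept. The 17360 genes that reached 1 FPKM in 2 or more of the 12 libraries were fitted as log2(FPKM + 1) with limma 3.58.1 in R 4.3.3, in 1 model with a term per group, moderated along the intensity trend and tested on simulated data. Tests were two-sided, with Benjamini-Hochberg adjustment over all genes tested in each of 5 comparisons. Members with their values in every library were those called whose mean reached 5 FPKM in some group, at most 8 per clade group by smallest p, and the 6 with the highest mean, 16 in all. Other members are given as descriptions, and 1 member is not reported here. The members and the 19 gene lists (246 genes) were chosen with earlier results of these data known. The 24 alternatives, of which 2 were added after seeing the data, covered pseudocount, filter, scaling, groups fitted, library weights, replicate block, tissue scores and left-out libraries.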

Additional observations from a re-analysis of the deposited data

Results flagged for a closer look

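In groups of 4 libraries, 1 library was marked when its gap to the nearest other exceeded Dixon's 95% limit as a share of the group's range, a mark that chance gives to about 1 in 20 groups. Gap and range were taken in log2(FPKM + 1), while the values below are printed in FPKM. Only the Lgr5-Apc group has 4 libraries, and 16 members were checked in it. Serpina3h was 9.63 FPKM in Lgr5-Apc replicate 2, against 0, 0.454 and 0 FPKM in the other 3, a gap of 0.842 of the range. Serpinb6e was 2.14 FPKM in the same library, against 0, 0.124 and 0 FPKM, a gap of 0.898 of the range. Both genes were called higher in Lgr5-Cdx2-Apc, and this library had the highest squamous score of the 12, at 8.82, and the second lowest columnar score, at 6.18.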

How the results depend on the processing

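The 0 members called in Lgr5-Apc and in Cdx2-Apc against control stayed 0 in all 24 alternatives. The counts of 14, 8 and 17 members for Lgr5-Cdx2-Apc against control, Lgr5-Apc and Cdx2-Apc moved. With only genes of a mean of at least 5 FPKM they were 6, 1 and 10, where fewer genes are tested. With the squamous score as a covariate they were 8, 11 and 3. Against Lgr5-Apc they were 2 with a pseudocount of 0.1 FPKM, 0 with only the 2 groups fitted, 4 with the hepatocyte score as a covariate and 19 without Lgr5-Apc replicates 2 and 3. Without these and control replicate 1 they were 22 against control and 19 against Lgr5-Apc. The hepatocyte covariate and this last setting were chosen after seeing the data, and the cause of these moves was not tested. Shares of all genes called in these settings are not given here, so moves particular to the members cannot be told from general ones. Leaving out 1 library at a time gave 0 to 19, 0 to 15 and 1 to 22. A lone Lgr5-Cdx2-Apc library is then assumed to vary like the other groups.

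With the replicate number as a block, 14, 2 and 17 members were called. The numbers did not pair the libraries: deviations of the 15 same-number pairs had a median correlation of -0.02, with 5 over 0.1, and the other 38 pairs 0.01, with 14 over 0.1. Of 30 called differences of named members, 0 changed sign in any alternative. Median-of-ratios and quantile scaling kept 29 of 30 each, the squamous covariate 17, and the fits without Lgr5-Cdx2-Apc replicate 1 or 2 kept 8 and 1. That 1 was Serpinb1a against Cdx2-Apc. Read depth is not known, so low values carry an unstated counting error.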
